A study of Mus musculus and Mus musculus
Oryx dammah with 30 samples.

Results

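The 10 genes described are Fos, Fosb, Fosl1, Jun, Junb, Jund, Egr1, Atf3, Ier2 and Myc, taken by gene name. They are 10 of the 53023 genes listed for four-cell nuclear transfer (NT) embryos, and the same 10 were found among the 55364 genes of the two-cell table and the 53023 genes of the DNA replication table. In all these NT embryos the donor was C2C12, a myoblast line from C3H mice. The recipients were mouse embryos (strains C57BL/6, DBA/2 and C3H are given for the whole) cultured with 0.1 μg/mL demecolcine, which arrests division at G2/M. In the paper, early two-cell transfers and those of a replication group were made before DNA replication. Not every recipient was therefore at G2/M at transfer. The group 4-cell NT held 3 libraries, each a pool of 3 embryos in which NT started at 46 hours post insemination (hpi), and 4-cell NT + amanitin held 3 pools cultured with α-amanitin, a fungal inhibitor of RNA polymerase II. Columns of the first are named PBS and those of the second AmanitinControl. The group 2-cell NT held 6 pools of 5 embryos that join early transfers from 21 hpi and late transfers from 30 hpi, and 2-cell NT + amanitin held 6 more. The groups D and DR of the replication experiment held 3 pools of 4 embryos each, without α-amanitin. All embryos were cultured for 24 h after NT. That experiment asks about DNA replication, but the labels do not say which of D and DR had replicated, so DR minus D is a direction of the names only. Libraries are called by their column names. For the two-cell embryos these do not tell early from late, and columns named Am and RAm were taken as treated and columns named NT and R as untreated.

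Immediate early genes are transcribed within minutes of a signal, without new protein synthesis, and their mRNAs are short-lived. Growth factor signals that pass through MAP kinases reach the serum response factor and its partners at these genes, and many of the products are transcription factors of the AP-1 family, in which a Fos protein pairs with a Jun protein. Myc shares the short mRNA half-life and binds DNA together with Max. Because such transcripts decay quickly, their level follows recent transcription, and they serve as a readout of current activity of RNA polymerase II (Pol II).

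Reads of the donor nuclei and of the embryo are not separated in these values, and in pooled embryos fewer cells with a transcript and less of it per cell cannot be told apart. The depth was 1136771 to 3101002 counted reads per four-cell library, 4712268 to 10503779 per two-cell library and 2603946 to 19181387 per replication library. The embryo list fixed for the analysis (Zp3, Gdf9, Bmp15, Oosp1, Nlrp5, Npm2, Dppa3 and Tead4) was detected in every library, except Tead4 in 3 two-cell libraries with α-amanitin. Its summed level was 8734 to 9937 FPKM (fragments scaled to gene length and library size) in 4-cell NT and 12200 to 16153 FPKM in 4-cell NT + amanitin, mostly Dppa3. In the two-cell libraries it was 7429 to 12361 FPKM without and 1514 to 8049 FPKM with α-amanitin. The myoblast list of 10 genes summed to 132 to 563 FPKM without and 77.8 to 1885 FPKM with α-amanitin at the four-cell stage, mostly Lgals1, while the collagen gene Col1a1 was at 0 in all 6 libraries. Of the tested markers, 1 of 8 embryo genes (Zp3, an egg coat protein) was called lower in 4-cell NT, as were 1.13% of all tested genes. Of the myoblast genes 0 of 5 were called in either direction. In the two-cell libraries the myoblast list summed to 137 to 3877 FPKM without and 1076 to 2219 FPKM with α-amanitin. There 4 of 6 tested myoblast genes (Col3a1, Col1a2, Des and Vim) were called higher without α-amanitin on the spike-in scale and 1 (Col3a1) as deposited. This stands beside 71.4% and 38.9% of all tested genes. Myod1, the myoblast determination factor, was at 0 in 5 of 6 libraries of each group. Of the 8 embryo genes 2 (Dppa3 and Tead4) were called higher on both scales. None was called lower scaled but 5 as deposited, beside 8.51% of all tested genes as deposited. The part of donor RNA in the results below was not tested.

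AU-rich pentamers of the letters ATTTA in the 3′ untranslated region are a known mark of short-lived mRNAs, and they were not used to select these genes. In GENCODE vM21 transcripts (mm10), each gene's longest annotated 3′ region was searched on the transcript strand. At least 1 pentamer was present in 9 of the 10 genes, against 65.2% of 21020 protein-coding genes, and at least 3 in Fos, Jun and Atf3, against 35.7% of all. Per 1000 bases the count was 4.91 in Fos, 4.29 in Myc, 4.12 in Junb, 3.24 in Jun, 2.53 in Atf3, 1.88 in Jund, 1.64 in Egr1, 1.57 in Fosl1 and 0.434 in Fosb, beside a median of 1.24 over all genes. Ier2 had none. Windows of 30 bases are shown for Fos and Myc, the genes with most pentamers per base, for Jund and Jun, whose levels differ below, and for Fosl1, whose mean FPKM was higher with α-amanitin than without it. Capitals mark the pentamer, and Jun and Jund have a single exon.

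Fos, chr12:85477100-85477129, plus strand: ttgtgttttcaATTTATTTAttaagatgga
Myc, chr15:61990134-61990163, plus strand: ttaacagatttgtATTTAattgttttttta
Jun, chr4:95049207-95049236, minus strand: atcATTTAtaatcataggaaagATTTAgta
Jund, chr8:70700358-70700387, plus strand: ccgattccgccctATTTAtgtttctactcg
Fosl1, chr19:5455866-5455895, plus strand: aagggcagctgctATTTAttttcctaaaga

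The 2 pentamers of Fos overlap, while those of Jun are apart and the Jund and Fosl1 windows hold a single one. A longer form, the AU-rich nonamer, was found in Fos and Myc, and in 16.2% of all genes. Promoters of 300 bases (RefSeq, GRCm38.p6) matched for Fos, Fosb, Jun, Junb, Jund and Atf3. Of these, Fos has TATAAA beginning 33 bases before its start site and Junb has it at the RefSeq start site, which lies upstream of the Junb start in the deposited tables, a motif in 13.6% of 32851 promoters on either strand. Neither CACGTG, the E-box bound by Myc, in 7.15% of all promoters, nor TGACGTCA, in 1.79%, nor TGANTCA, the AP-1 site, in 7.81%, nor the CArG box of the serum response factor, in 1.63%, was found in any of the 6 on either strand, which says only that these letters are not in these windows. The Jund window ends upstream of the Jund start in the deposited tables and does not hold it.

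**Figure D1:**
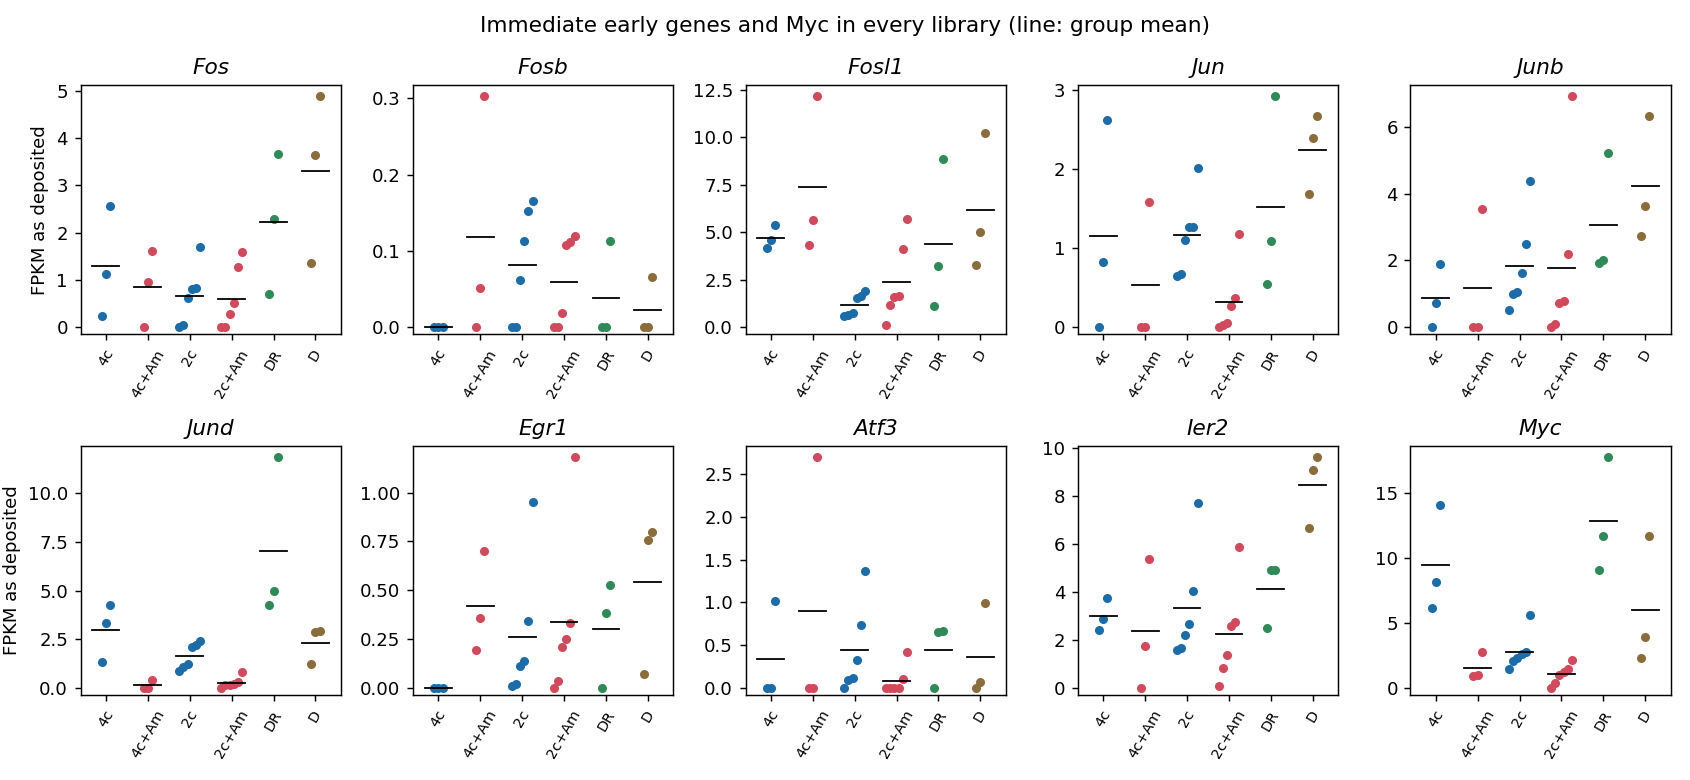
FPKM as deposited (y axis, linear, own scale per gene) of each gene in each library of the 6 groups (x axis: 4c, 4-cell NT; 2c, 2-cell NT; +Am, with α-amanitin; DR and D, replication experiment); points are pooled libraries and lines are group means. Without α-amanitin, Myc is at 6.14 to 14.1 FPKM in 4-cell NT, above the 0.927 to 2.73 FPKM with it, while the points of Fosl1 in those groups overlap.

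The comparison of 4-cell NT with 4-cell NT + amanitin asks which transcripts depended on Pol II during the culture. Myc and Jund were higher without α-amanitin, and Fosl1, Fos and Ier2 did not pass the test in either direction. The other 5 genes had an FPKM of at least 1 in fewer than 3 libraries and were not tested. The test was limma on log2(FPKM + 1) over 9884 genes with Benjamini-Hochberg adjustment, and 2 of 5 tested genes were called higher beside 11.1% of all genes. Jund reached an FPKM of 1 in untreated libraries only, so it could enter the test only by being higher there. In the other direction 1.13% of all genes and none of the 5 were called. These libraries list no spike-ins, so their FPKM are shares of the counted reads. A higher FPKM with α-amanitin is thus not shown to be a larger amount per embryo.

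Myc drives growth and ribosome production in many cells, and per length its mRNA had the highest mean of the 10 in 4-cell NT. It was at 6.14, 14.1 and 8.17 FPKM in the libraries S15, S17 and S7 without α-amanitin, from 38, 70 and 48 reads. With α-amanitin it was at 2.73, 0.971 and 0.927 FPKM in S16, S18 and S8, from 23, 3 and 4 reads. Every untreated library lay above every treated one, as for 27.6% of all tested genes. The log2 change was 2.04 ± 0.48 (SE; adjusted p = 0.0286, limma), or 1.67 above the median change of all tested genes, which was 0.37. Of the 5 tested genes it alone was called and changed at least 4-fold, as 6.2% of all genes did.

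Jund, the Jun family member that many cells express without stimulation, was at 1.32, 4.26 and 3.33 FPKM in S15, S17 and S7. With α-amanitin it was at 0.387 FPKM in S16, from 2 reads, and at 0 in S18 and S8. The groups did not overlap. Over the pooled reads, 30 without and 2 with α-amanitin, the rate was 13.9 times higher without it, with an exact 95% counting interval of 3.54 to 120.4. This interval covers the counting of reads only and not the spread between libraries. The log2 change was 1.75 ± 0.42 (adjusted p = 0.0306, limma). These calls rest on few libraries. Leaving out S18, S8, S15, S17 or S7 left 0 of the 10 called, with log2 changes of Myc between 1.74 and 2.35 when any 1 of the 6 libraries was left out, and leaving out S16 left both called. Jund kept a log2 change of 1.67 to 1.91 without 1 treated library, and without 1 untreated library it was not tested, since fewer than 3 libraries then reached an FPKM of 1. In the same fits the share of all genes called in either direction went from 12.2% to 5.6%, 7.51%, 1.06%, 1.54% and 0.719%, and to 15.8% without S16.

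Jun, the founding Jun protein and a stronger activator than its relatives, was at 0.826, 0 and 2.61 FPKM in S15, S17 and S7, and at 0, 0 and 1.58 FPKM in S16, S18 and S8. Junb, which can restrain Jun, was at 1.91, 0.713 and 0 FPKM without and at 0, 0 and 3.56 FPKM with α-amanitin. In both genes the highest treated library, S8, exceeded untreated ones, so the groups overlapped. S8 was the highest treated library for Fos, Fosl1 and Ier2 as well. Its myoblast list summed to 1885 FPKM, against 77.8 and 197 FPKM in S16 and S18, mostly Lgals1, and its embryo list was also the highest, at 16153 FPKM. The part of this in the overlaps was not tested. With any 1 of the 6 libraries left out, the log2 changes were -0.0687 to 1.27 for Ier2 and -0.717 to -0.0669 for Fosl1. The highest of both was without S8 (adjusted p = 0.172 and 0.942, limma). Leaving out the highest treated library can only raise the change, so this says nothing on S8 itself.

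Among the Fos proteins, which pair with a Jun protein to bind DNA, Fosl1 had the highest mean FPKM in both groups. It was at 5.40, 4.16 and 4.60 FPKM in S15, S17 and S7. With α-amanitin it was at 4.35, 5.67 and 12.2 FPKM in S16, S18 and S8, from 23, 11 and 33 reads. The treated libraries thus lay within or above the untreated range, and the log2 change was -0.45 ± 0.45 (adjusted p = 0.543, limma). Fos itself was at 1.12, 0.232 and 2.56 FPKM without and 0.96, 0 and 1.61 FPKM with α-amanitin, with a log2 change of 0.29 ± 0.51 (adjusted p = 0.747). Fosb had 0 reads in all untreated libraries, where 3 reads would be worth 0.211 to 0.263 FPKM, and 4 reads in the treated ones.

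Egr1, a zinc finger factor downstream of the serum response factor, had 0 reads in each of the 3 untreated libraries and 5, 1 and 5 reads in S16, S18 and S8, that is 0.36, 0.196 and 0.702 FPKM. It was the only one of the 10 in which every treated library lay above every untreated one, an order that 7.56% of all tested genes had, a set that does not hold Egr1. Against 3 reads in each untreated library, its mean treated FPKM was at least 1.30-fold higher, a value close to the limit of detection. Atf3, a stress-induced AP-1 repressor, was found in 1 library of each group, at 1.01 FPKM in S17 and 2.69 FPKM in S16. Ier2, a small nuclear protein of the early response, was at 3.75, 2.87 and 2.43 FPKM without and at 0, 1.73 and 5.38 FPKM with α-amanitin. Its untreated libraries were close together, its treated ones spanned them, and the log2 change was 0.62 ± 0.64 (adjusted p = 0.56).

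**Figure D2:**
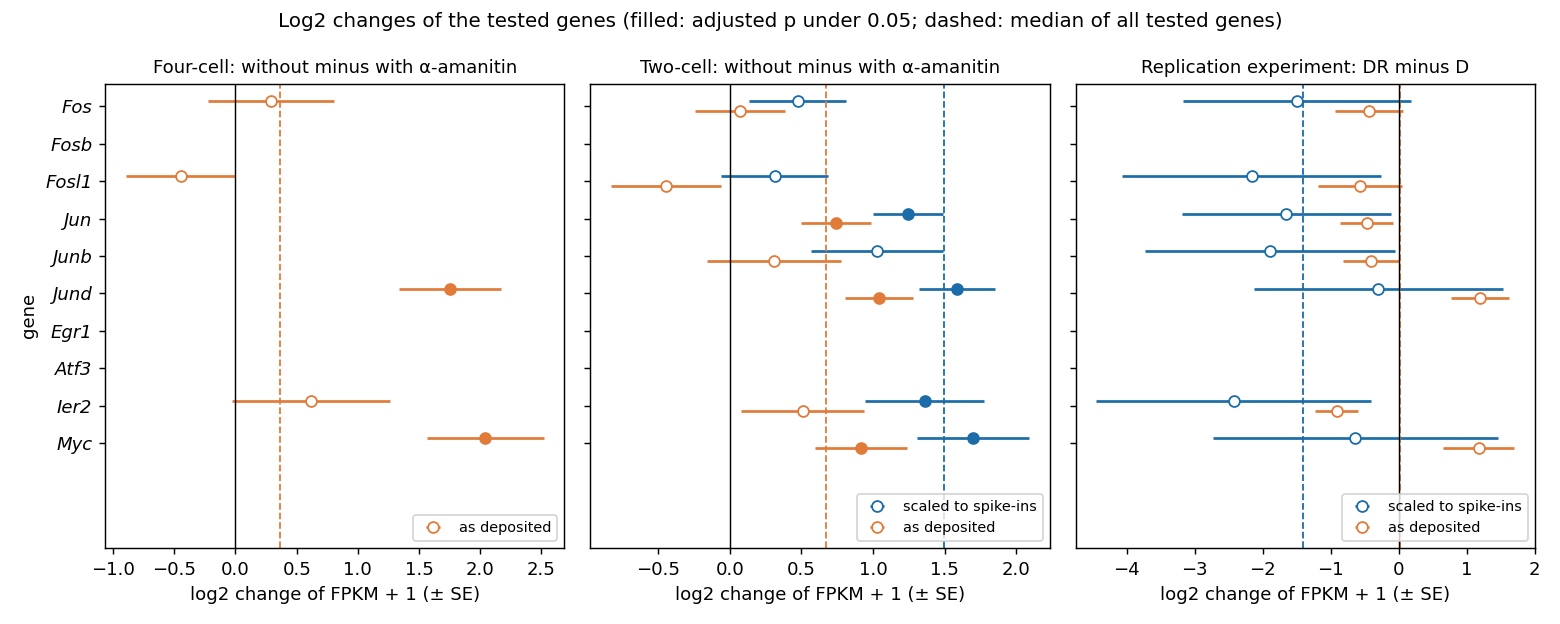
Log2 change of FPKM + 1 with its standard error (x axis) for each tested gene (y axis) in the 3 comparisons, as deposited (orange) and scaled to spike-ins (blue); filled points have an adjusted p under 0.05 and dashed lines mark the median of all tested genes. In the four-cell panel Myc (2.04) and Jund (1.75) lie to the right of the median of 0.37, and in the replication panel Myc and Jund are on the right of 0 only as deposited.

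The two-cell libraries ask the same question in an earlier recipient. They were scaled to 47 spike-in RNAs found in every library, which made up 2.38% to 6.26% of the counted reads without and 6.54% to 11.3% with α-amanitin. On this scale the median change of all 17196 tested genes was 1.49, and 71.4% of them were called higher without α-amanitin. Jund, Jun, Ier2 and Myc were called higher, which is 4 of 7 tested genes and below the share of all genes, and none was called 4-fold. Relative to the median of all genes their changes were 0.09, -0.25, -0.13 and 0.21. On FPKM as deposited the median was 0.67, 38.9% of genes were called higher and 8.51% lower, and 3 of the 7 (Jun, Jund and Myc) were called higher.

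Jund was separated between the groups on both scales. On FPKM as deposited its lowest, median and highest library was 0.859, 1.65 and 2.41 FPKM without and 0, 0.186 and 0.827 FPKM with α-amanitin. It was the only one of the 10 genes whose groups did not overlap as deposited, as for 16.3% of all tested genes. Its log2 change was 1.59 ± 0.26 (adjusted p = 0.000134, limma) scaled to spike-ins and 1.04 ± 0.24 (adjusted p = 0.00431) as deposited. It again reached an FPKM of 1 in untreated libraries only, and its recovered reads are not all whole, for a reason that was not tested.

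Jun had a lowest, median and highest library of 0.642, 1.18 and 2.01 FPKM without and 0, 0.16 and 1.17 FPKM with α-amanitin. One treated library, RAm2, reached the untreated range with 33 reads. Scaled to spike-ins the untreated libraries were at 1.39 to 2.36 and the treated at 0 to 0.725 FPKM, without overlap, as were those of Jund and Myc and of 35.4% of all tested genes. The log2 change of Jun was 1.24 ± 0.24 (adjusted p = 0.000399, limma). For Junb the untreated libraries were at 0.51 to 4.39 FPKM (median 1.34) and the treated at 0 to 6.92 FPKM (median 0.757). The treated library Am3 was the highest of all 12 as deposited, but at 4.51 it was below NT1 and R3, at 7.64 and 5.47, scaled to spike-ins. On that scale the change of 1.03 ± 0.46 missed the threshold (adjusted p = 0.0533, limma).

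Myc had a lowest, median and highest library of 1.44, 2.46 and 5.64 FPKM without and 0, 1.12 and 2.19 FPKM with α-amanitin. The groups overlapped as deposited, and the log2 change was 1.70 ± 0.39 scaled (adjusted p = 0.00109, limma) and 0.92 ± 0.32 as deposited (adjusted p = 0.0314). Myc lost its call in 3 of 21 alternative fits, over which the change was 0.523 or more and the adjusted p up to 0.195 (limma). The difference was unequal between the sets of column names. In the R and RAm columns the mean was 3.52 ± 1.84 FPKM without and 0.547 ± 0.64 FPKM with α-amanitin (SD, n = 3 each). In the NT and Am columns it was 2.07 ± 0.648 FPKM without and 1.55 ± 0.601 FPKM with it. Scaled to spike-ins, the change of Myc was 1.84 ± 0.58 larger in the R set (interaction, adjusted p = 0.0163, limma), where 53.2% of all genes had such a difference and their median difference was 1.42. As deposited the difference was 1.28 (adjusted p = 0.0618). The sets also differed in markers. The embryo list summed to 1514 to 3395 FPKM in RAm and 6943 to 8049 FPKM in Am, and to 7429 to 9118 FPKM in R and 8495 to 12361 FPKM in NT. The myoblast list summed to 137 to 434 FPKM in R and 862 to 3877 FPKM in NT, and to 1076 to 1441 FPKM in RAm and 2044 to 2219 FPKM in Am. Their part in the difference was not tested. Which set is the early or late transfer cannot be told apart from other differences between the sets.

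Fosl1 overlapped between the groups on both scales. Its lowest, median and highest library was 0.584, 1.15 and 1.93 FPKM without and 0.0999, 1.64 and 5.71 FPKM with it. The log2 change was 0.31 ± 0.37 scaled to spike-ins (adjusted p = 0.455, limma) and -0.44 ± 0.38 as deposited (adjusted p = 0.345), so its sign depends on the scaling. On both scales it lay below the median of all genes, by -1.18 and -1.11. Fos was at 0 to 1.69 FPKM without (median 0.713) and 0 to 1.58 FPKM with α-amanitin (median 0.388), with a change of 0.47 ± 0.34 (adjusted p = 0.214).

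Ier2 was at 1.58 to 7.73 FPKM without (median 2.46) and 0.0694 to 5.88 FPKM with α-amanitin (median 2.00). The groups overlapped, and the log2 change was 1.36 ± 0.42 scaled (adjusted p = 0.00748, limma) but 0.51 ± 0.43 as deposited (adjusted p = 0.333). Atf3 was found in 5 of 6 untreated libraries, at up to 1.37 FPKM, and in 2 of 6 treated ones, at up to 0.421 FPKM. Egr1 was at 0.0112 to 0.951 FPKM without and 0 to 1.18 FPKM with α-amanitin, and Fosb did not pass 0.165 FPKM in any of the 12 libraries. None of these 3 was tested, and all 3 overlapped between the groups.

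**Figure D3:**
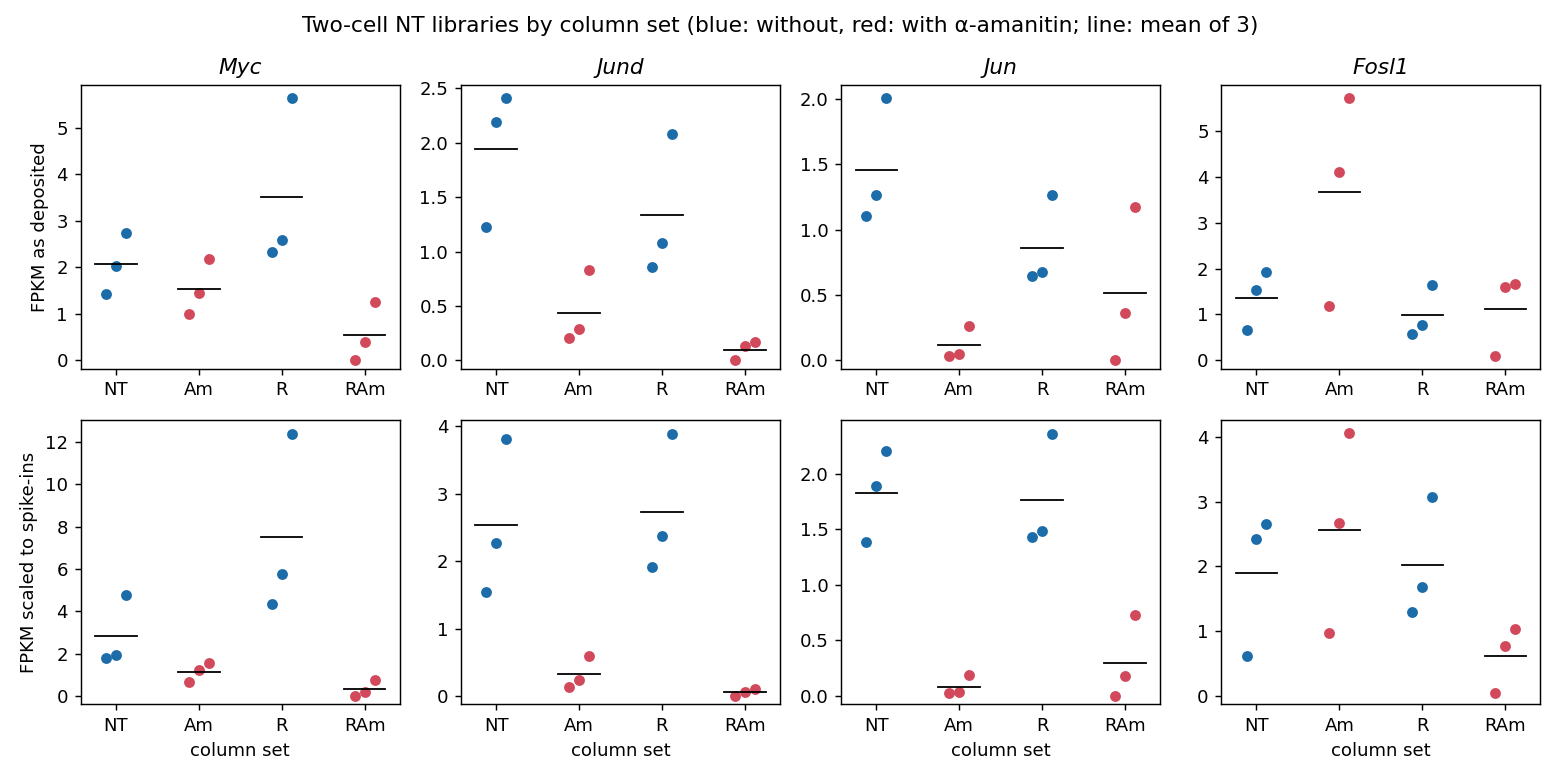
FPKM of Myc, Jund, Jun and Fosl1 in the 12 two-cell libraries (y axis, linear; top as deposited, bottom scaled to spike-ins) by set of column names (x axis; NT and R without, Am and RAm with α-amanitin); lines are means of 3. Jund is lower in both treated sets, and Myc in R averages 3.52 FPKM against 0.547 FPKM in RAm.

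In the replication experiment no gene was called between DR and D (0% of 14570 tested genes; 88 had an unadjusted p under 0.05, none of them among the 10). The 19 spike-ins found in every library gave scaling factors from 0.0945 to 5.65, and standard errors of the 7 tested genes on that scale were 1.54 to 2.10 log2 units. On FPKM as deposited, again 0 genes were called, 897 had an unadjusted p under 0.05, and Jund and Ier2 were among them. A limma-voom fit of recovered reads also called 0 genes. The values are therefore given as levels.

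Jund was at 4.96, 11.8 and 4.26 FPKM in DR1, DR2 and DR3 and at 2.87, 1.20 and 2.92 FPKM in D1, D4 and D5, so that every DR library was above every D library, as for 8.21% of all tested genes. Ier2 lay the other way, at 4.91, 4.94 and 2.52 FPKM in DR and 9.09, 9.63 and 6.69 FPKM in D, an order that 3.99% of all tested genes had. Every D library was also above every DR library in the embryo list, at 4584 to 5750 against 3391 to 4071 FPKM, and in the myoblast list, at 322 to 459 against 171 to 301 FPKM, and the part of this was not tested. As deposited the log2 change of Jund was 1.20 ± 0.43 and that of Ier2 was -0.91 ± 0.32 (adjusted p = 0.788 for both, limma). Scaled to spike-ins, Jund was at -0.30 ± 1.83, a change of sign, against a median of -1.41 over all genes.

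Myc was at 17.8, 11.7 and 9.05 FPKM in DR and 3.89, 11.7 and 2.32 FPKM in D. One D library, D4, was at the level of DR2, and the log2 change was 1.18 ± 0.52 as deposited and -0.63 ± 2.10 scaled (adjusted p = 0.788 and 0.787). Fosl1 was at 3.23, 8.86 and 1.12 FPKM in DR and 10.2, 3.27 and 5.01 FPKM in D. Fos ranged from 0.70 to 4.88 FPKM, Jun from 0.54 to 2.91 FPKM and Junb from 1.93 to 6.34 FPKM over the 6 libraries, each with overlapping groups. Egr1 and Atf3 stayed under 1 FPKM and Fosb under 0.12 FPKM in all of them.

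Set side by side, the untreated groups hold Myc at 12.8 ± 4.47 FPKM in DR, 9.46 ± 4.13 in 4-cell NT, 5.98 ± 5.04 in D and 2.80 ± 1.47 in 2-cell NT (SD, n = 3, 3, 3 and 6), and the treated four-cell and two-cell groups at 1.54 ± 1.03 and 1.05 ± 0.78. Neighbours in this order lie within their spread (SD), and the tables were normalized separately, so no test was made across them. The order for Jund was 7.02 ± 4.19 FPKM in DR, 2.97 ± 1.50 in 4-cell NT, 2.33 ± 0.978 in D and 1.64 ± 0.66 in 2-cell NT, with 0.27 ± 0.289 FPKM in 2-cell NT + amanitin and 0.129 ± 0.223 FPKM in 4-cell NT + amanitin. Of these neighbours, those from DR to 2-cell NT lie within their spread and 2-cell NT lies above 2-cell NT + amanitin.

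Other genes of the pathway were examined as lists, chosen with earlier results of these data known. They are described by counts beside the 11.1% of all four-cell genes called higher. The feedback inhibitors and mRNA decay factors, which switch the early response off, had 6 of 11 tested genes called higher in 4-cell NT, all 6 at least 4-fold, and none lower. Their median change was 2.15, against 0.37 for all genes. It includes 4 of the 11, Dusp1, Btg2 and Trib1 among them, that reached an FPKM of 1 in untreated libraries only. These 4 could enter the test only by being higher there. The count was 5 without S16, 3 without S18 or S8, and 0 without S15, S17 or S7, fits in which 15.8%, 5.6% or 7.51%, and 1.06%, 1.54% or 0.719% of all genes were called. Dusp1, a MAP kinase phosphatase, was at 4.97 ± 1.41 FPKM without and 0.0778 ± 0.135 FPKM with α-amanitin (log2 change 2.45 ± 0.37, adjusted p = 0.00821, limma). Btg2, an antiproliferative cofactor of deadenylation, was at 17.8 ± 12.9 against 0.52 ± 0.471 FPKM (3.40 ± 0.61, adjusted p = 0.0139). Trib1, a pseudokinase, had 0 reads in each treated library and 4.72 ± 3.45 FPKM without α-amanitin, a mean at least 16.1-fold higher than 3 reads per treated library would give.

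Of the other immediate early transcription factors 2 of 7 tested genes were called higher and none lower, with a median change of 1.91. Without S15 or S17 1 was called and without S7 none, while a pseudocount of 0.1 gave 3 and limma-voom 4. Klf2 and Klf10 were among the genes that reached an FPKM of 1 in untreated libraries only. Klf2, a zinc finger factor, was at 26.6 to 51.1 FPKM without and 0 to 0.873 FPKM with α-amanitin (5.01 ± 0.45, adjusted p = 0.00202, limma). Hes1, the Notch-responsive repressor, was at 11.5 to 32.5 against 0 to 1.90 FPKM (3.66 ± 0.55, adjusted p = 0.00786). Klf10, a TGF-β-induced factor, had 0 reads in all treated libraries and was at 1.33 to 10.3 FPKM without α-amanitin (median 1.70). Its untreated mean was at least 10.1-fold higher than 3 reads per treated library would give. A single library held 98 of its 123 reads, and Klf10 missed the threshold (adjusted p = 0.0543, limma).

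Among AP-1 partners 1 of 5 was called higher. It was Batf, a lymphoid AP-1 factor, at 4.23 ± 2.06 against 0.528 ± 0.469 FPKM (1.76 ± 0.45, adjusted p = 0.0397, limma), and it too entered the test through untreated libraries only. Mafg and Atf4 had changes of 0.89 and 0.71 and did not pass. Of the upstream kinases and factors 0 of 8 were called (median change 0.17). The stress-activated kinase Mapk14 and the ribosomal S6 kinase Rps6ka3 had changes of 0.86 and 0.67 and did not pass (adjusted p = 0.246 and 0.351, limma). Srf, the serum response factor, was at 0.565 to 0.965 FPKM without α-amanitin, was found in 1 treated library at 0.945 FPKM, and was not tested.

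In the Myc network 1 of 9 genes was called higher, Mlx, a Max-like partner protein, at 10.7 ± 3.91 against 2.47 ± 1.38 FPKM (1.80 ± 0.48, adjusted p = 0.0458, limma). Max, the partner that Myc requires, was at 2.70 to 3.66 FPKM without and 1.40 to 2.51 FPKM with α-amanitin and did not pass (0.62 ± 0.39, adjusted p = 0.335). Mxd3 and Mga, which compete for Max, had changes of 1.20 and 0.89 and did not pass either. Mycn had a single read in the 6 libraries. Of 13 tested Myc targets 0 were called in either direction (median change 0.18). Nme1, a nucleoside diphosphate kinase, was at 347.7 FPKM without and 472.7 FPKM with α-amanitin (-0.44 ± 0.19, adjusted p = 0.159), and the nucleolar proteins Nop56 and Ddx18 had changes of 0.79 and 0.70. Of 4 tested genes of the integrated stress response 1 was called higher, Ddit4, an inhibitor of mTOR signalling, at 5.59 ± 2.15 against 0.228 ± 0.254 FPKM (2.39 ± 0.42, adjusted p = 0.0131), again tested through untreated libraries only. Ddit3 and Asns had changes of 1.46 and 1.40 (adjusted p = 0.0517 and 0.117). The 1 call among AP-1 partners and the 1 in the Myc network held without S16 and were lost without any other of the 6 libraries. The first was also lost with a pseudocount of 0.1, no filter, a filter at FPKM 5, median-of-ratios scaling and limma-voom, and the second with all of these but the filter at FPKM 5. Batf was not tested without S15, S17 or S7 or with the filter at FPKM 5. The stress response list had 2 called without S16, 1 without S18 or S8 and 0 without S15, S17 or S7.

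**Figure D4:**
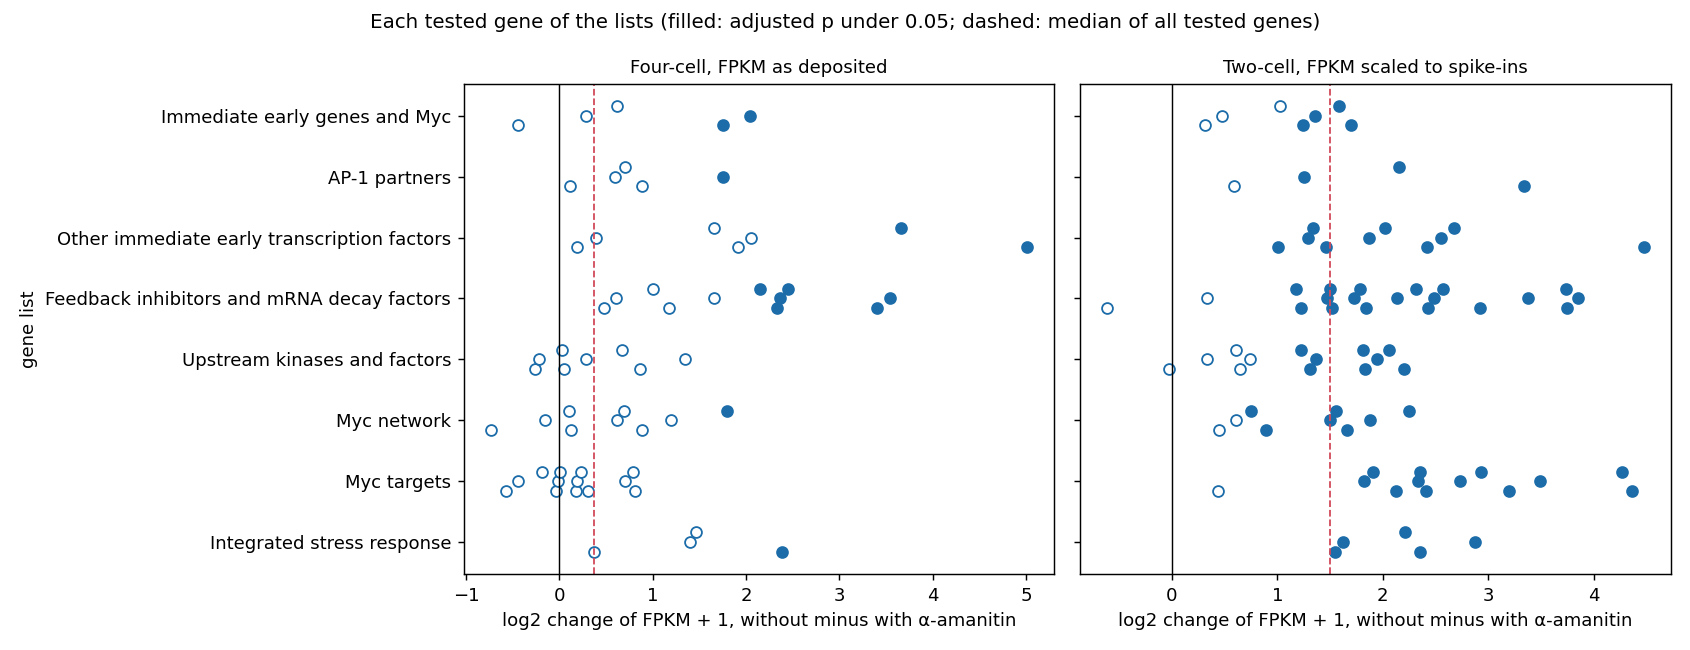
Log2 change of FPKM + 1, without minus with α-amanitin (x axis), of each tested gene of 8 lists (y axis) in four-cell (left) and two-cell (right) NT embryos; filled points have an adjusted p under 0.05 and dashed lines mark the median of all tested genes, 0.37 and 1.49. On the left the feedback inhibitors have 6 filled points of 11 and the Myc targets have 0 of 13.

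In the two-cell libraries, scaled to spike-ins and beside 71.4% of all genes, 18 of 20 tested feedback inhibitors and decay factors were called higher, as were 10 of 10 other immediate early factors, 3 of 4 AP-1 partners, 8 of 13 upstream kinases and factors, 7 of 9 genes of the Myc network, 12 of 13 Myc targets and 5 of 5 genes of the integrated stress response. Of these tested genes, 5 of the feedback list, 3 of the other immediate early factors, 1 AP-1 partner and 1 upstream factor reached an FPKM of 1 in untreated libraries only, among them Klf2, Csrnp1, Spry2 and Elk3. As deposited, beside 38.9% of all genes, the lists in the same order had 15 of 20, 5 of 10, 3 of 4, 3 of 13, 1 of 9, 9 of 13 and 4 of 5 called higher, and 2 feedback and 1 upstream genes were called lower. The median change of the Myc targets was 2.41 against 1.49 for all genes, and on FPKM as deposited it was 1.57 against 0.67. Npm1, a nucleolar chaperone, was at 911.3 FPKM without and 181.9 FPKM with α-amanitin as deposited (scaled change 4.27 ± 0.69, adjusted p = 0.000118, limma), and Fbl, the rRNA methyltransferase fibrillarin, changed by 2.36 ± 0.41. Klf2 changed by 4.47 ± 0.44 and Csrnp1, a nuclear factor of the early response, by 2.67 ± 0.33. Nfkbia, the inhibitor of NF-κB, changed by 3.38 ± 0.39 and Spry2, an inhibitor of receptor tyrosine kinase signalling, by 2.57 ± 0.31.

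Mafg and Atf4 changed by 2.15 ± 0.34 and 3.34 ± 0.74, the CREB factor Creb1 and the serum response partner Elk3 by 2.06 ± 0.33 and 1.37 ± 0.29, and Ddit4 and Ddit3 by 2.87 ± 0.36 and 2.35 ± 0.47, all of them called also as deposited. Mlx and the ubiquitin ligase Huwe1 changed by 1.56 ± 0.35 and 1.50 ± 0.35, near the median of all genes, and were not called as deposited (adjusted p = 0.143 and 0.18). Srf changed by 1.22 ± 0.29 (adjusted p = 0.00139, limma), below that median, and was not called as deposited either (adjusted p = 0.137). Max did not pass on either scale, at 0.60 ± 0.45 scaled and -0.46 ± 0.51 as deposited. Mycn was at 0.0388 to 0.745 FPKM in the 6 untreated libraries and was found in 1 of the 6 treated ones, at 0.0322 FPKM.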

How the data were processed

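Poly(A) cDNA of pooled embryos was amplified by PCR, so intervals and floors cover counting error only. Per the labels, the authors used Trimmomatic, Trim Galore, cutadapt, STAR, featureCounts and the mm10 build, with versions not given in the sources used here. The authors deposited FPKM per gene and library, without spike-in scaling, beside the gene length in bases. Multiplied by length, four-cell values are whole reads, and two-cell and replication values are multiples of 0.01 read, for a reason not given in the sources used here. Whether counting used strand is not given in the sources used here. FPKM were put on the log2(FPKM + 1) scale and tested with limma 3.58.1 (R 4.3.3, trended prior variance). Genes entered a test when 3 or more libraries reached an FPKM of 1. A fold on this scale understates changes of low genes. Values were scaled by the median of ratios to spike-ins where at least 10 were above 0 in every library, which held in the two-cell (47) and replication (19) tables and not in the four-cell table (0). Genes were called at a Benjamini-Hochberg adjusted p under 0.05, and 4-fold calls were counted beside them. The study calls the replicates independent biological ones, and the labels do not say what was separate, so p-values measure the spread between pools. Fits were also run on simulated reads without spike-in scaling. Their outcome is not given here, and they say nothing on the scaled fits. A further 4 replication columns and the oryx experiment were not used. The genes and lists were chosen with earlier results of these data known. Of each list, the 3 tested genes with the smallest p in the four-cell and the 2 in the two-cell comparison are named, with Srf, Max and Mycn. One gene that this rule would name is not reported here. Alternatives were another pseudocount, filters and scalings, limma-voom on recovered reads, the two-cell column sets, a replicate block and each library left out.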

Additional observations from a re-analysis of the deposited data

Results flagged for a closer look

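In the groups of 6 two-cell libraries, 7 of 20 gene-by-group sets held 1 library far from the rest, which is 35%. The rule gives about 1 in 20 for evenly spread values, but such a gap was present in 10.6% of the sets of all tested genes and in 30.8% of those of all listed genes that vary, 3 of the 10 genes being too low to be tested. Without α-amanitin these were Egr1 in NT3, at 0.951 FPKM with the next library at 0.342, and Myc in R3, at 5.64 FPKM with the next at 2.73. With α-amanitin they were Jun in RAm2 at 1.17 FPKM (next 0.365), Junb in Am3 at 6.92 FPKM (next 2.20), Jund in Am1 at 0.827 FPKM (next 0.289), Egr1 in RAm3 at 1.18 FPKM (next 0.335) and Atf3 in RAm2 at 0.421 FPKM (next 0.0995). All 7 were the highest of their 6 libraries. The difference between column sets in the response of Myc, 1.84 larger in the R set on the spike-in scale (interaction, limma adjusted p = 0.0163), passed, as did no other of the 7 tested genes, where 53.2% of all genes passed with a median difference of 1.42. As deposited it did not pass (1.28, adjusted p = 0.0618). The cause of none of these was tested.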

How the results depend on the processing

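At the four-cell stage 2 of the 10 genes were called. The number (with the share of all genes called in either direction, 12.2% as reported) was 1 with a pseudocount of 0.1 (7.41%), 0 without a filter on low values (1.27%), 1 with a filter at FPKM 5 (12.3%; Jund then untested), 2 with median-of-ratios scaling (9.95%) and with limma-voom (12%), and 0 to 2 with a library left out (0.719% to 15.8%). Of all calls 90.7% were higher without α-amanitin, and 77.3% with median-of-ratios scaling. Fos and Ier2, never called there, ranged from -0.104 to 0.67 and from -0.0687 to 1.27 with a library left out. At the two-cell stage 4 were called. The number was 0 with a filter at FPKM 5 (no member then tested), 1 of 7 with median-of-ratios scaling (36.1% of all genes called in either direction), 2 of 7 with limma-voom (45.4%) and 2 of 6 in the NT and Am columns alone (32.3%). It was 4 of 4 in the R and RAm columns alone (86%; Fosl1, Ier2, Junb and Myc, with Jun and Jund untested), 3 of 7 as deposited (47.4%) and 4 to 5 with a library left out (68.8% to 74.9%). A pseudocount of 0.1 gave 5 of 7 (71.5%) and no filter on low values gave 4 of 10 (37.2%). Higher calls were 97.8% of all, 82.1% as deposited and 60.7% with median-of-ratios scaling, which moved the median of all genes to 0.24. With that scaling Fos, Fosl1 and Junb were at -0.15, -0.82 and -0.0245. Fosl1 was also negative with limma-voom (-0.50), as deposited (-0.44) and in the NT and Am columns alone (-0.27). In the replication experiment 0 were called throughout. Jund and Myc turned positive with median-of-ratios scaling (1.15 and 1.13), limma-voom (1.72 and 1.21) and as deposited (1.20 and 1.18), and ranged from -1.20 to 1.00 and -2.13 to 0.35 with a library left out. Beyond fewer libraries or genes tested, the cause was not tested. The replicate block left 4 two-cell genes called (11937 of all genes, against 12557), and same-numbered libraries did not deviate together (correlations -0.00421 to 0.0784). Shared numbers allowed no block elsewhere. edgeR and DESeq2, which take deposited counts, were not run on the reads recovered from FPKM. Of the list counts, 46 of 99 four-cell, 36 of 198 two-cell and 0 of 108 replication values moved by over 1.5 times. Where they were detected, the 10 genes had 1 to 70 reads in a four-cell library, so depth limits what can be detected of them there.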
